A study of Rattus norvegicus with 4 samples.

Results

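Sox10 is an HMG-box transcription factor of oligodendrocytes and Schwann cells that does not act alone on its target genes. It recruits chromatin remodelers and the Mediator complex to regulatory regions, shares enhancers with other transcription factors, and works in a chromatin landscape set by histone deacetylases. The 10 genes described here encode such partners, and were chosen by name as known partners, with no measured value in the rule. Earlier results of these data were known when the choice was made. Smarca4, Chd7 and Chd8 encode ATP-dependent chromatin remodelers, Hdac1, Hdac2 and Hdac3 histone deacetylases, and Med12 a Mediator subunit. Yy1, Zeb2 and Myrf encode transcription factors with roles in oligodendrocyte differentiation.

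The cells were of OLN93, a spontaneously immortalized rat line of the oligodendroglial lineage kept in medium with serum. The 2 control libraries came from cells labelled Sox10-positive, and the 2 Sox10-deficient libraries from clones A and B, in which Sox10 had been inactivated by CRISPR/Cas9 with a different guide RNA for each. Each deficient library thus stands for a single clone, so that the loss of Sox10 and changes that arose in the isolation of a clone cannot be told apart. The labels call the controls biological replicates, whereas the paper describes control clones, and p-values measure only the spread between these 4 libraries. Of the 10 genes, 9 were found among the 17327 gene symbols of the deposited count files, and 7 of these had enough counts to be tested. Chd7 is not among the symbols of the count files analysed here.

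The files hold few counts, with totals between 60951 and 104017 per library. Mean normalized counts in a separate deposited table sum to 19320879. That table comes from the authors, and its values are called the authors' means here. The paper describes far more reads per library than the files hold counts. The deposited counts thus cover a small part of the reads, and how this part came about is not given in the sources used here. The share of the authors' mean that was recovered differed between genes, from 0.181% for Hdac3 to 1.02% for Myrf among the members. Zeb2 came to 0.702%, where the median gene with an authors' mean of at least 500 came to 0.384% (5th to 95th percentile 0.129% to 1.19%). Levels are given as raw counts and as CPM, counts scaled to a common library size by edgeR's TMM method. A count of 3, used as the floor for reading expression, corresponds to between 29.0 and 48.2 CPM, and this floor covers counting error only. Sox10 itself had 28 counts in control 1 and 64 in control 2, against 0 in clone A and 14 in clone B. The log2 fold change was -2.74 with an adjusted p of 0.0172 (quasi-likelihood F-test of edgeR, Benjamini-Hochberg over all 2438 tested genes), but the adjusted p was 0.999 with DESeq2, 0.0695 without clone A and 0.447 without control 2. Among markers of the lineage, Pdgfra and Cspg4 of oligodendrocyte precursors had at least 16 counts in every library, whereas Olig2 had 7 counts in control 1 and 0 elsewhere. Of 7 markers of myelinating oligodendrocytes, Mag, Mobp and Mal had 0 counts in all 4 libraries, and Mbp at most 2 in any, whereas Cnp had between 20 and 68 counts per library and Mog between 11 and 18.

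Zeb2 was the member with the most counts and the only tested member that passed the test. Zeb2 encodes a zinc finger repressor that binds activated Smad proteins and is known to relieve the block that BMP and Wnt signals place on myelination. Because the results turn on this gene, the 250 bases before its annotated start are shown, at chr3:49754324-49754573 on the minus strand of the rat assembly GRCr8 as given by RefSeq. That assembly is newer than the one the reads were mapped to. Capitals mark the match to a short Sox-type motif, searched as ACAAAG and ACAATG on both strands.

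Zeb2: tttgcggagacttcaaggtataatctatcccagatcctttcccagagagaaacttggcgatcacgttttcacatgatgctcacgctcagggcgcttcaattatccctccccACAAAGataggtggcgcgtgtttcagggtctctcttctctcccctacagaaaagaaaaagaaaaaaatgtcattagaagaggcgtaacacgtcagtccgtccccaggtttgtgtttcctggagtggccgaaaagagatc

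The match begins 139 bases before the start. Of 27457 rat promoters of the same length, 24.8% hold such a match, so that a match is common in such windows. RefSeq promoters were at hand for 7 of the 10 members, and Zeb2 was the only one of these with a Sox-type match. The Myrf consensus, searched as CTGGCAC and CTGGTAC on both strands, had a match in the promoter of Hdac2 alone, against 5.35% of all promoters. The search took single motifs, whereas the paper found that strong binding of Myrf in vitro needed a pair of closely spaced ones. No binding of Sox10 or Myrf was measured in these files.

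Zeb2 fell in both Sox10-deficient clones. It had 35 counts in control 1 and 49 in control 2, against 17 in clone A and 19 in clone B. In CPM these were 562 in control 1 and 474 in control 2, against 197 in clone A and 215 in clone B, or 518 ± 62.1 against 206 ± 13.3 (SD, n = 2 each). Both clones lay well below either control, with no overlap. The log2 fold change was -1.31 (standard error, SE, 0.35, 95% interval -2.06 to -0.57), a level 2.48-fold lower, with an unadjusted p of 0.00170 and an edgeR adjusted p of 0.0477. It thus also met the study's criterion of a 2-fold decrease at a P of 0.05, applied here to the unadjusted p. Over all tested genes, 3.69% passed the adjusted threshold, 2.5% as lower ones, while the 2-fold criterion was met by 6.97% as lower and 4.63% as higher ones. Summed over the libraries, 84 counts in the controls stood against 36 in the clones, a ratio of 0.406 (exact 95% interval 0.267 to 0.607, for counting error only).

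The size of the Zeb2 decrease was stable, but its call was not. Over every alternative run, the log2 fold change stayed between -1.46 and -1.22. The adjusted p crossed the threshold with DESeq2's test (0.351), with DESeq2's size factors in edgeR (0.0516), without the filter on low counts (0.0946), with the replicate number as a block (0.114) and when any single library was left out. It was 0.101 without control 1, 0.323 without control 2, 0.352 when clone A was left out and 0.176 when clone B was. The call held with library totals alone and when the tested genes were limited to those with 10 or more counts in each library, with adjusted p-values of 0.0349 and 0.0346. RefSeq lists an antisense gene, Zeb2-as1, that overlaps Zeb2. The library kit keeps the strand, but whether the counting used it is not given in the sources used here, so that reads of both may be mixed. In these bulk samples, fewer cells that express a gene and less RNA per cell cannot be told apart. Some glial marker genes also differed between the groups. The summed CPM of 5 Schwann cell markers was 1156 in control 1 and 1133 in control 2, against 289 in clone A and 113 in clone B, with Ngfr at 0 counts in either clone. For 7 markers of myelinating oligodendrocytes it was 1188 in control 1 and 852 in control 2, against 590 in clone A and 352 in clone B. Most of that difference was Cnp, without which, in a sum added after seeing the data, the other 6 gave 193 in control 1 and 194 in control 2, against 185 in clone A and 125 in clone B. The summed CPM of 6 markers of oligodendrocyte precursors overlapped between the groups. It was 1285 in control 1 and 1181 in control 2, against 1260 in clone A and 1191 in clone B. Among these 6, Cspg4 was higher in both clones (log2 fold change 0.93, edgeR adjusted p = 0.196) and Nkx2-2 lower (-0.77, edgeR adjusted p = 0.359). The part of these markers in the Zeb2 result was not tested.

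**Figure D1:**
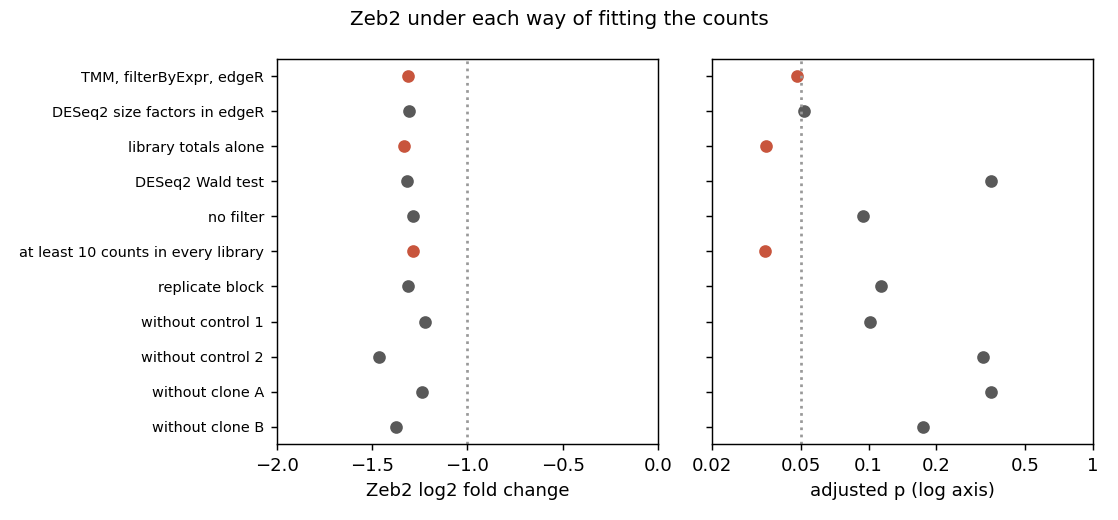
Log2 fold change of Zeb2, clones over controls (left, with a dotted line at 2-fold), and its adjusted p on a log axis (right, with a dotted line at 0.05) under each way of fitting the counts, with orange points where the adjusted p was 0.05 or less. All fold changes lie between -1.46 and -1.22, while the adjusted p runs from 0.0346 to 0.352.

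Zeb1, the paralog of Zeb2 and a repressor with the same kind of zinc fingers, did not pass the test. It had 3 counts in control 1 and 13 in control 2, against 8 in clone A and 23 in clone B, with a log2 fold change of 0.92 (SE 0.65, edgeR adjusted p = 0.587). Of the counts of both genes together, Zeb2 took 92.1% in control 1 and 79.0% in control 2, but 68.0% in clone A and 45.2% in clone B. The exact 95% intervals, which cover counting error only, were 78.6% to 98.3% in control 1 and 66.8% to 88.3% in control 2, against 46.5% to 85.1% in clone A and 29.8% to 61.3% in clone B. This share was chosen after the values were seen, holds the Zeb2 decrease itself and was not tested across libraries.

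Ctbp1, a corepressor that Zeb proteins bind, had a log2 fold change of -0.72, and Smad3, the member of the Zeb and Smad list with the most counts, one of -0.27, with adjusted p-values of 0.630 and 0.844 from edgeR's test. Of the 12 genes of the list, 4 could be tested and none passed the adjusted threshold in either direction. Their median log2 fold change was -0.17, beside -0.0059 over all tested genes. Smad7, which encodes an inhibitory Smad, had 6 counts in control 1 and 1 in control 2, against 4 in clone A and 8 in clone B, and did not clear the filter.

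Myrf encodes the membrane-bound factor that is cleaved to release a DNA-binding trimer and that drives myelin gene expression together with Sox10. In oligodendrocytes its gene is known as a target of Sox10. Myrf had 10 counts in control 1 and 12 in control 2, against 8 in clone A and 6 in clone B. In CPM these were 161 in control 1 and 116 in control 2, against 92.5 in clone A and 68.0 in clone B, a small gap without overlap. The log2 fold change was -0.75 (SE 0.67) at an edgeR adjusted p of 0.707, and the 95% interval from -2.15 to 0.66 holds both a 4-fold decrease and no change. The deposited counts of Myrf were high beside the authors' table of mean normalized counts, which rests on far more reads. They came to 1.02% of the authors' mean normalized count of 886, where the median gene with a mean of at least 500 came to 0.384%, and 6.24% of such genes lay at or above Myrf.

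Yy1, a zinc finger factor that both activates and represses, is known for its part in the exit of oligodendrocyte precursors from the cell cycle. It had 7 counts in control 1 and 17 in control 2, against 7 in clone A and 6 in clone B. In CPM these were 112 in control 1 and 165 in control 2, against 80.9 in clone A and 68.0 in clone B, so that both clones lay below both controls. The log2 fold change was -0.91 (SE 0.66, 95% interval -2.31 to 0.48) at an edgeR adjusted p of 0.602. A pseudogene overlaps Yy1 in the RefSeq annotation, and reads shared with it would be uncertain here. Of 13 subunits of INO80, a remodeling complex that Yy1 joins, all were listed but just 2 could be tested. Nfrkb, the most counted of them, had 5 counts in control 1 and 8 in control 2, against 13 in clone A and 11 in clone B, with a log2 fold change of 0.79 and an edgeR adjusted p of 0.663. The summed CPM of the 13 subunits were 530 in control 1 and 629 in control 2, against 948 in clone A and 646 in clone B.

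**Figure D2:**
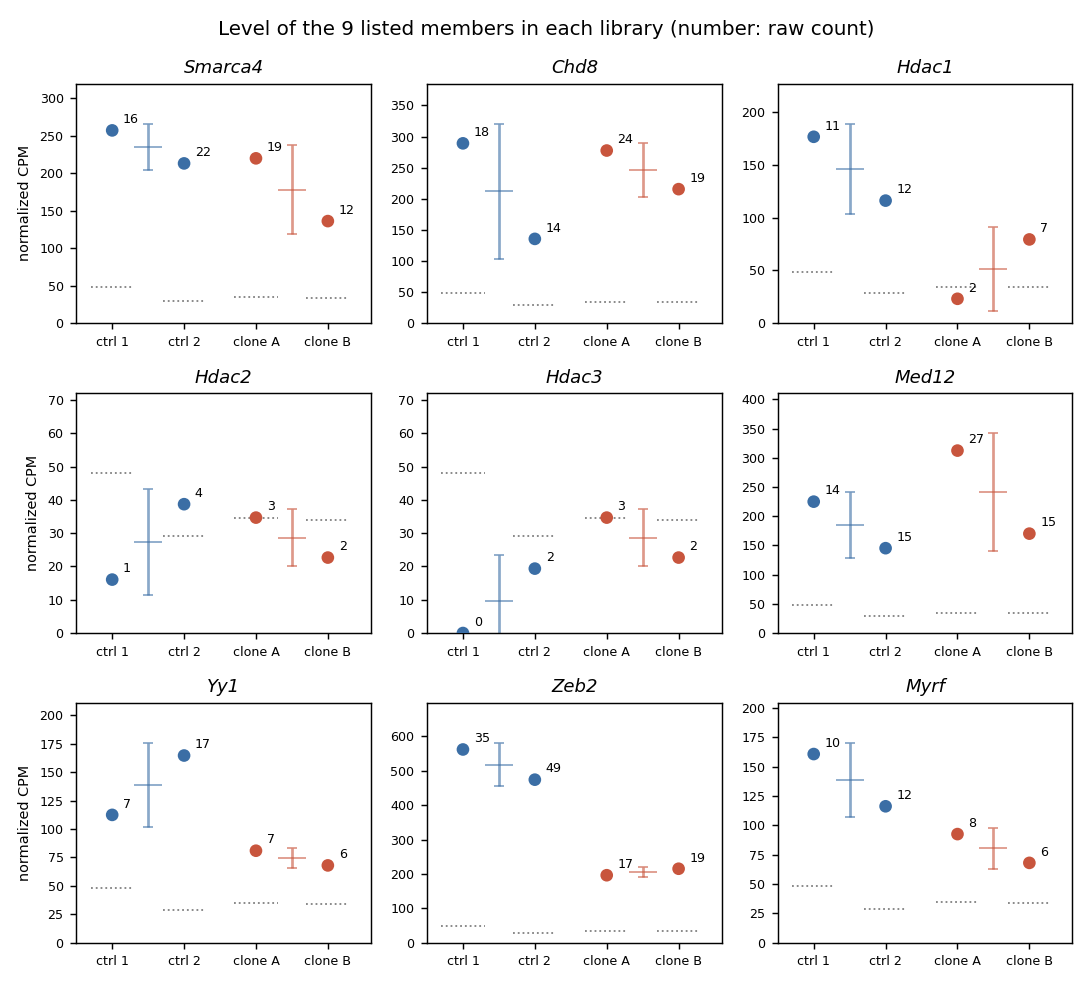
Normalized CPM of the 9 listed members in the 2 control libraries (blue) and clones A and B (orange), with the raw count beside each point, bars for the mean and SD of each group (n = 2) and dotted lines for the floor of 3 counts in each library. The clones lie below both controls for Hdac1, Yy1, Zeb2 and Myrf, and Hdac2 and Hdac3 lie at or near the floor.

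Among the chromatin remodelers, neither tested gene moved beyond the spread between libraries. Smarca4 encodes Brg1, the ATPase of the BAF complex, which Sox10 is known to recruit to its target genes. Smarca4 had 16 counts in control 1 and 22 in control 2, against 19 in clone A and 12 in clone B, or 235 ± 31.1 CPM in the controls against 178 ± 59.1 CPM in the clones (SD, n = 2 each). The groups overlapped, and the log2 fold change was -0.38 (SE 0.44, 95% interval -1.32 to 0.55, edgeR adjusted p = 0.792). Clone B was the lowest library, and without it the log2 fold change was -0.08, whereas without clone A it was -0.75. A long noncoding RNA gene on the opposite strand overlaps Smarca4 in RefSeq, so that reads of both may be mixed.

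Chd8, a chromodomain helicase that is known to open chromatin at genes of the oligodendrocyte program, had 18 counts in control 1 and 14 in control 2, against 24 in clone A and 19 in clone B. These corresponded to 289 CPM in control 1 and 136 in control 2, against 278 CPM in clone A and 215 in clone B, so that both clones lay between the controls. The log2 fold change was 0.29 (SE 0.46, 95% interval -0.67 to 1.25, edgeR adjusted p = 0.868). Its sign hung on control 2, the lowest library, without which it was -0.25. A small nucleolar RNA gene, Snord8, overlaps Chd8 in RefSeq, so that reads of both may be mixed here too. Chd7, the relative of Chd8 that cooperates with Sox10 in oligodendrocytes, has a mean normalized count of 10 in the authors' table over all 4 libraries. The 9 listed members have authors' means from 886 for Myrf to 6882 for Smarca4 there.

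None of the other subunits of the BAF complex passed the adjusted threshold in edgeR. Of 27 further subunits, 21 were listed, and 11 could be tested. Their median log2 fold change was -0.32, with 8 of 11 below 0, against 50.5% of all tested genes. Smarcd2 and Smarcd3, alternative versions of the same subunit, were the only tested partner genes of any list that passed 0.05 before adjustment. Smarcd3 is named after its values were seen. Smarcd2 had 26 counts in control 1 and 20 in control 2, against 8 in clone A and 10 in clone B, with a log2 fold change of -1.49 (SE 0.50, edgeR adjusted p = 0.125). By its unadjusted p of 0.00857 Smarcd2 met the 2-fold criterion, as the only tested partner gene, but it cleared the filter on low counts in the controls alone. Smarcd3 had 26 counts in control 1 and 46 in control 2, against 18 in clone A and 21 in clone B, with a log2 fold change of -0.95 (SE 0.36, edgeR adjusted p = 0.196).

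For Smarcd2 and Smarcd3, and also for Smarcd1, both clones lay below both controls. Among the 11 tested subunits this held for 5, while 2 lay above both controls. Over all tested genes, 21.5% were lower and 21.6% higher without overlap. Smarcd1, the third version, had 289 CPM in control 1 and 271 in control 2, against 243 CPM in clone A and 204 in clone B, a log2 fold change of -0.32. Ss18, a subunit of the canonical complex, had the lowest p among the subunits above 0. It had 7 counts in control 1, 13 in control 2 and 19 in either clone, a log2 fold change of 0.85 at an edgeR adjusted p of 0.473. Actb, which encodes the actin that is part of the complex and of the cytoskeleton, had the most counts and a log2 fold change of -0.03. Smarca2, the ATPase that can take the place of Smarca4, and Actl6b, the neuronal version of an actin-like subunit, had 0 counts in all 4 libraries, which allows levels of up to 48.2 CPM in control 1 and 29.0 CPM in control 2.

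Of the other CHD remodelers, 4 of 8 were listed and 2 were tested. Chd6 had 8 counts in control 1 and 13 in control 2, against 4 in clone A and 5 in clone B, with a log2 fold change of -1.28 (SE 0.77). Chd1, the most counted of them, had a log2 fold change of -0.68 (SE 0.57). Their adjusted p-values from edgeR's test were 0.495 and 0.670.

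None of the class I histone deacetylases passed the adjusted threshold in edgeR. Hdac1 and Hdac2 encode close paralogs whose joint loss is known to block the differentiation of oligodendrocytes and Schwann cells. Hdac1 had 11 counts in control 1 and 12 in control 2, against 2 in clone A and 7 in clone B. In CPM these were 177 in control 1 and 116 in control 2, against 23.1 in clone A and 79.4 in clone B. Both clones lay below both controls, and clone A lay under the floor. The log2 fold change was -1.45 (SE 0.78) at an edgeR adjusted p of 0.431, and the 95% interval from -3.10 to 0.20 includes no change. Clone A decided the size, since the log2 fold change was -0.82 without it and -2.55 without clone B. The ratio of the summed counts, 9 in the clones against 23 in the controls, was 0.371 (exact 95% interval 0.151 to 0.832, for counting error only).

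Hdac2 had 1 count in control 1 and 4 in control 2, against 3 in clone A and 2 in clone B. The sums were 5 in both groups, so that the ratio of 0.948 had an exact 95% interval from 0.218 to 4.12 and no difference was detectable at this depth. Hdac3, the deacetylase of the NCoR complex, had 0 counts in control 1 and 2 in control 2, against 3 in clone A and 2 in clone B, all at or under the floor. No fold is given for it. In the authors' table their mean normalized counts are 1201 for Hdac1, 1218 for Hdac2 and 967 for Hdac3, and the deposited counts came to 0.666%, 0.205% and 0.181% of these. The paper describes counts of uniquely mapped reads by Ensembl gene identifier, whereas the deposited counts are by gene symbol. Whether reads shared by close paralogs were left out of these in the same way is not given. A split between Hdac1 and Hdac2 is thus uncertain.

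The complexes that carry class I deacetylases gave no call. Of 24 genes of the Sin3, NuRD, NCoR and CoREST complexes, with the Nab corepressors of Egr factors, 12 were tested. None passed, and 5 were below and 7 above 0, with a median log2 fold change of 0.07. Gps2 and Tbl1xr1, which encode subunits of the NCoR complex, had the lowest p in each direction, with log2 fold changes of -0.58 and 0.66 and adjusted p-values of 0.793 and 0.697 from edgeR's test. The summed CPM of the 22 listed genes were 3148 in control 1 and 3049 in control 2, against 2983 in clone A and 3402 in clone B. None of the 8 other histone deacetylases had enough counts for the test, and Hdac5, the most counted, had between 3 and 6 counts per library.

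Med12 is part of the kinase module of Mediator, the bridge between enhancer-bound factors and RNA polymerase II, and is known to bind Sox10 in myelinating glia. It had 14 counts in control 1 and 15 in control 2, against 27 in clone A and 15 in clone B. In CPM these were 225 in control 1 and 145 in control 2, against 312 in clone A and 170 in clone B, and the groups overlapped. The log2 fold change was 0.42 (SE 0.46, 95% interval -0.55 to 1.40, edgeR adjusted p = 0.773). Clone A was the highest library, and without it the value was -0.07.

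The rest of Mediator gave no call either. Of 32 further genes, 31 were listed and 8 tested, of which none passed. The median log2 fold change was 0.17, and the values ranged from -0.47 to 0.54. Med14, the scaffold of the complex, had a log2 fold change of -0.38, and Med13, which joins the kinase module to the core, one of 0.40, with adjusted p-values of 0.757 and 0.768 from edgeR's test. Med19 had the most counts, with 40 in control 1 and 98 in control 2, against 64 in clone A and 105 in clone B, and a log2 fold change of 0.26. The summed CPM of the listed genes lay at 2698 in control 1 and 2691 in control 2, against 2521 in clone A and 2710 in clone B. Med12l, the paralog of Med12, had 0 counts in all 4 libraries.

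**Figure D3:**
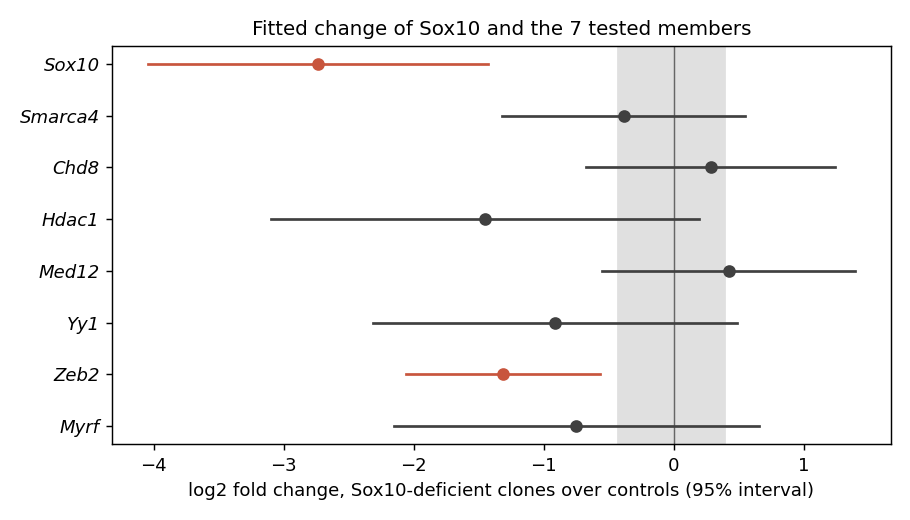
Log2 fold change of Sox10 and the 7 tested members, clones over controls, with 95% intervals from edgeR's quasi-likelihood fit, in orange where the adjusted p was 0.05 or less. The grey band spans the middle 50% of all 2438 tested genes, from -0.43 to 0.40. Sox10 and Zeb2 are the only genes plotted whose interval leaves out 0.

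Seen together, 1 of the 7 tested members was lower by the adjusted p and none was higher, against 2.5% and 1.19% of all tested genes. Below 0 were 5 of the 7, against 50.5% of all tested genes. In 4 of the 7, namely Zeb2, Hdac1, Yy1 and Myrf, both clones lay below both controls, and none lay above, where 21.5% of all tested genes were lower and 21.6% higher without overlap. Hdac1, Yy1 and Myrf cleared the filter's minimum in control libraries alone, which by itself favours genes that are lower in the clones, so that these counts are descriptions. The median log2 fold change of the 7 members was -0.75, beside -0.0059 over all tested genes. This median is the value of Myrf, and the same limit of the filter bears on it.

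Without a filter, the 9 listed members together had 112 counts in control 1 and 147 in control 2, against 110 in clone A and 88 in clone B. Their summed CPM were 1799 in control 1 and 1423 in control 2, against 1272 in clone A and 998 in clone B, a ratio of 0.705. Zeb2 made up 31.2% of the members' counts in control 1, 33.3% in control 2, but 15.5% in clone A and 21.6% in clone B. The sum over the other 8 members, a choice made after seeing the data, was 1237 CPM in control 1 and 949 in control 2, against 1075 CPM in clone A and 782 in clone B, so that the groups overlapped, with a ratio of 0.850.

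Counting noise by itself was large for single members. Between the controls, the log2 ratio of a tested member ran from -1.09 for Chd8 to 0.55 for Yy1, where counting error alone gives an SD between 0.32 for Zeb2 and 0.65 for Yy1. Between clones B and A it ran from -0.88 for Med12 to 1.78 for Hdac1, where counting error alone gives an SD of 1.16 for Hdac1. Zeb2 had the smallest distances, with -0.24 between the controls and 0.13 between the clones. Counting error alone gives Zeb2 an SD of 0.32 between the controls and 0.48 between the clones. Distances this small are thus within counting error and do not show how well the level repeats.

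Transcription factors and coactivators that work beside Sox10 gave no call either. Of 20 genes for transcription factors known to act with, after or against Sox10 in glia, 17 were listed and 4 tested. Nkx2-2, a homeodomain factor of oligodendrocyte differentiation, had 20 counts in control 1 and 52 in control 2, against 18 in clone A and 25 in clone B. The log2 fold change was -0.77 (SE 0.38, edgeR adjusted p = 0.359). Nfatc3, one of the NFAT factors that act with Sox10, had a log2 fold change of 0.02. Olig1, which did not clear the filter and is named after its values were seen, had 12 counts in control 1, 1 in control 2 and 0 in either clone. Control 1 thus held nearly all of its counts. Without the filter, Olig1 had an edgeR adjusted p of 0.0569.

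Of 8 general coactivators, 3 were tested. Crebbp, a histone acetyltransferase, had 24 counts in control 1 and 47 in control 2, against 23 in clone A and 21 in clone B, with a log2 fold change of -0.75 (SE 0.36, edgeR adjusted p = 0.339). Over all partner lists, 46 of 152 genes could be tested. By edgeR none passed the adjusted threshold, and DESeq2 gave none after adjustment. Before adjustment 2 of the 46 passed 0.05 in edgeR, against 14.7% of all tested genes. Smarcd2, Chd6 and Ctbp1 cleared the filter in the controls alone, and Nfrkb and 2 others in the clones alone, which by itself favours lower values in the clones for the former and higher ones for the latter.

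**Figure D4:**
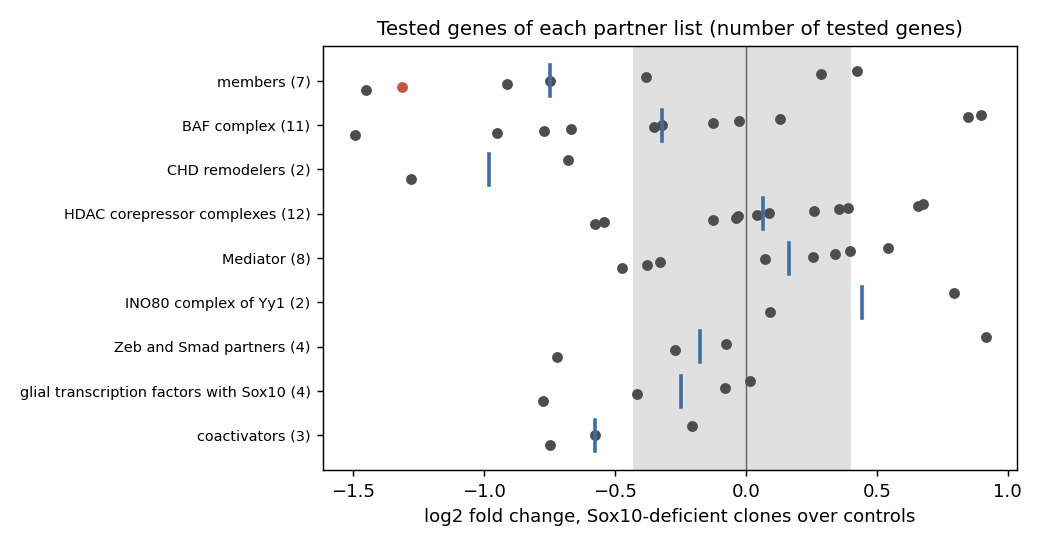
Log2 fold change, clones over controls, of the 7 tested members and of the tested genes in each list of their partners, with blue lines for the medians and a grey band for the middle 50% of all tested genes. The single orange point is Zeb2, the only gene plotted that passed the adjusted threshold in edgeR.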

How the data were processed

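For each library, the authors deposited counts of reads per gene symbol from HTSeq, after mapping with STAR 2.5.1 to the rat genome rn5 according to the methods and the submitters' processing notes. These counts are not normalized. The paper names uniquely mapped reads and Ensembl gene identifiers. The annotation by symbol and the strand option are not given in the sources used here. A second deposited table holds the authors' DESeq2 output, whose mean normalized count, rounded to whole numbers, was used as a score and printed as the authors' mean. Its fold changes, Wald statistics and p-values were not used.

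The quasi-likelihood test of edgeR 4.0.16 was run on the counts under R 4.3.3, after filterByExpr and TMM normalization, with condition as the sole term. The P-values were adjusted by Benjamini-Hochberg over 2438 genes. Standard errors and 95% intervals came from the F statistic, and the fit was tested on simulated data. Counts between replicates differed by more than sampling noise in both groups, with a chi-square per degree of freedom of 2.18 for the controls and 2.20 for the clones. Ratios of summed counts have exact Clopper-Pearson intervals.

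All 10 members are named. From each list, genes with an adjusted p of 0.05 or less, otherwise the lowest p in each direction, and the most counted gene are named, and for markers the 2 most counted. Results for some genes that this rule selects are not reported here. Members and lists were chosen with earlier results of these data known. Counts of different genes were not read as relative levels, because no transcript lengths were used. Alternatives were DESeq2 1.42.0, other scalings and filters, a replicate block and leaving out each library. RefSeq gene and promoter tables of GRCr8 served for neighbours and sequences.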

Additional observations from a re-analysis of the deposited data

How the results depend on the processing

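Zeb2 kept its direction under all alternatives run, but its call was lost with DESeq2's size factors in edgeR (log2 fold change -1.31), DESeq2's test (-1.32), no filter (-1.28) and the replicate block (-1.31, adjusted p = 0.114), and in all 4 fits without 1 library (-1.46 to -1.22). Sox10 lost its call with DESeq2 (-2.74), in the replicate block (-2.82) and in 2 of the fits without 1 library, which ranged from -8.51 to -1.75, the lowest with clone A at 0 counts. Without 1 library, Chd8 ranged from -0.25 to 0.83 and Med12 from -0.069 to 0.80, so that both changed sign. In these fits the lone library of a group is assumed to vary like the others, the genes tested change, and Yy1 could not be tested without control 2. Causes were not tested.

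The replicate numbers gave a correlation of deviations of 0.12 between control 1 and clone A, and nothing shows that equal numbers were processed together. In the replicate block, 28 genes were lower and 14 higher by the adjusted p, against 61 and 29 without the block. DESeq2 gave 30 and 11, a minimum of 10 counts in each library gave 24 lower genes, and no filter gave 47 higher ones. Leaving out 1 library gave 2 to 70 lower and 0 to 39 higher genes. These were 2 and 0 without control 2, 39 and 16 without clone A, and 44 and 15 without clone B. By 2-fold and the unadjusted p, 170 genes were lower and 113 higher, against 103 and 68 with DESeq2, 329 and 295 without a filter, and 39 and 32 with at least 10 counts in every library. Without Zeb2, the summed ratio of the members moved from 0.705 to 0.850. At this depth, Hdac2 and Hdac3 did not clear the filter, and without it their adjusted p-values in edgeR were 1.00 and 0.895.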

Other observations

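Some partner genes that did not clear the filter on low counts had counts mostly in the clones or mostly in the controls, and are named after their values were seen. Chd2, a remodeler that is known to be recruited to active genes, had 6 counts in control 1 and 7 in control 2, against 21 in clone A and 10 in clone B. Rcor3, a subunit of the CoREST corepressor, had 3 counts in clone A, 5 in clone B and 0 in either control. Hdac4, a class IIa deacetylase, had 1 count in control 1, 4 in control 2 and 6 in either clone. Dpf1, a BAF subunit of neurons, had 5 counts in control 1 and 8 in control 2, against 0 in clone A and 4 in clone B. Nfatc2, a calcium-regulated factor that acts with Sox10, had 1 count in control 1, 8 in control 2 and 0 in either clone. Without the filter, none passed the adjusted threshold in edgeR, with adjusted p-values from 0.403 for Nfatc2 to 0.895 for Hdac4. Apart from Chd2 none of them had more than 8 counts in any library.

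Markers of astrocytes, neurons and endothelium were at or near 0 in all libraries. Of 5 astrocyte markers, 3 had 0 counts in all libraries and Gja1, the most counted, had 1 count in clone A, 4 in clone B and 0 in either control. All 4 endothelial markers had 0 counts, and 4 of 5 neuronal ones. Among the Schwann cell markers, Ngfr had 37 counts in control 1, 62 in control 2 and 0 in either clone, and Pmp22 had 26 in control 1 and 36 in control 2, against 23 in clone A and 8 in clone B. Cnp, the most counted marker of myelinating oligodendrocytes, had 62 counts in control 1 and 68 in control 2, against 35 in clone A and 20 in clone B, with a log2 fold change of -1.36 and an edgeR adjusted p of 0.0331. Mog had 12 counts in control 1 and 18 in control 2, against 13 in clone A and 11 in clone B. Of the fibroblast genes, Col1a1 had 21 counts in control 1 and 34 in control 2, against 25 in clone A and 12 in clone B, and Pdgfrb at most 7 in any library. The microglial gene Csf1r had between 4 and 13 counts per library, and Aif1 at most 1.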
